A study of Mus musculus with 12 samples.

Results

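Mitochondrial fatty acid oxidation and ketone enzymes were described as a set of 35 genes, from the acyl-CoA synthetases that activate fatty acids to the enzymes that use ketone bodies. Each gene was read from the probe set whose annotation gave that gene's symbol alone and which had the highest mean over the 12 arrays, and it was kept if it lay above 4 (log2) on at least 3 arrays. This gave 33 of the 35 genes, among 9744 genes tested in all, and all 33 lay above 4 on 12 of 12 arrays. Acsl1 and Cpt1b were not matched by this rule and are not analysed here.

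RNA came from kidney proximal tubules isolated by Percoll centrifugation from mice aged 20 weeks on a normal diet, and each sample was hybridized to 1 Affymetrix array. There were 4 groups of 3 arrays. The dB/dB catalase-Tg mice carried both the dB/dB genotype and the catalase transgene, the dB/dB mice only the genotype, the catalase-Tg mice only the transgene, and the wild-type mice neither. The dB/dB genotype is a mutation of the leptin receptor that makes mice obese and diabetic, and catalase is the enzyme that breaks down hydrogen peroxide. The labels do not name the promoter of the transgene, but in published work on catalase-Tg mice a rat catalase is driven in proximal tubule cells by the androgen-responsive promoter of Kap. The mutation alters splicing of the leptin receptor, and mouse probe sets may not separate a rat transgene from the mouse gene. The labels were taken as given and were not checked against either gene. The labels number the samples of a group 1 to 3, give no sex, and do not tell whether each came from its own animal, and a p-value here therefore covers only the variation among these arrays, part of which may be technical. Values are log2 signals as deposited, a difference is the first group minus the second in log2 units, and levels are compared only within a gene, since probe sets differ in brightness. In such bulk RNA, fewer cells of a type and less RNA per cell cannot be told apart.

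Proximal tubule cells have little glycolysis and take most of their energy from fatty acids. A fatty acid is joined to coenzyme A, carried into the mitochondrion as a carnitine ester, and shortened there by repeated rounds of dehydrogenation, hydration, a second dehydrogenation and thiolysis. Electrons from the first step reach the respiratory chain through the electron transfer flavoprotein, and ketone bodies made in the liver are turned back into acetyl-CoA by the mitochondria of other tissues, the kidney among them.

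Several features of the arrays touch the results. The first arrays of dB/dB catalase-Tg, catalase-Tg and wild type stood apart from their groups, with limma array weights of 0.172, 0.287 and 0.227, whereas the other 9 arrays had weights of 0.629 to 3.03. Xist, transcribed from the inactive X chromosome of females, read 11.91 on wild type 2 and 6.72 on wild type 3, against 2.31 to 2.67 on the other 10 arrays. The Y-linked Eif2s3y read 2.30 on wild type 2 and 7.89 on wild type 3, against 7.88 to 8.93 on the other 10, so these 2 arrays were not alike. Kap, the androgen-responsive gene of proximal tubules, read 8.46 on catalase-Tg 1 and 8.63 on wild type 1, and 11.70 to 15.29 on the other 10. The mean level of 8 markers of the loop of Henle and distal tubule, relative to its mean over all arrays, was 0.21 to 0.99 in dB/dB catalase-Tg, 1.05 to 1.53 in dB/dB, -2.44 to -1.52 in catalase-Tg and -1.70 to 1.66 in wild type. The same measure for 20 proximal tubule markers was -0.51 to 0.88 in dB/dB catalase-Tg, -0.73 to -0.43 in dB/dB, -0.08 to 0.91 in catalase-Tg and -1.98 to 0.51 in wild type, and all 20 passed the filter. For 12 endothelial markers it was -1.19 to 1.49, 0.84 to 1.82, -1.83 to -0.12 and -1.47 to 1.55 in the same 4 groups. For the 4 collecting duct markers that passed the filter it was -0.17 to 1.08, 0.30 to 1.19, -0.62 to -0.44 and -0.83 to -0.30. Of these, Slc26a4 and Hsd11b2 did not overlap between dB/dB and wild type, while Aqp3 and Slc4a1 did, and Aqp2 read 2.30 on every array. The fat markers Ucp1, Adipoq and Cidea lay between 2.30 and 2.52 on all arrays, at or near the lowest value of the table.

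Before the values by gene, 3 stretches of promoter are shown: that of Hadha and Hadhb, because both subunits of the trifunctional protein are read from 1 stretch, and those of Cpt2 and Acsl5, because these had the highest and the lowest difference of the set, 1.30 and -1.06, in dB/dB catalase-Tg set against dB/dB once 3 arrays of low weight are left out, as given further on. Of these, the Acsl5 difference did not pass the test (SE 0.40, adjusted p = 0.0868). Sequences are RefSeq's for GRCm38.p6, written 5′ to 3′, with capitals for the searched motifs, here the GC box (GGGCGG on either strand) and the CCAAT box (CCAAT on either strand), and no 2 marked motifs overlap. On chromosome 5 the annotated starts of Hadha on the minus strand, at 30154980, and Hadhb on the plus strand, at 30155253, face away from each other with 272 bases between them.
Hadha and Hadhb, between their starts, chr5:30154981-30155252, plus strand: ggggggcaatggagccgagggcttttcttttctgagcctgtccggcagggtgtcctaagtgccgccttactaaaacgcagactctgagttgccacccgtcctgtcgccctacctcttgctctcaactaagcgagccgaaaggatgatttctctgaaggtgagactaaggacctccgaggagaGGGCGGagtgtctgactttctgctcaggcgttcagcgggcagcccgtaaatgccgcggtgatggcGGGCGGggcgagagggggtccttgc
Cpt2, the 250 bases before its start, chr4:107923590-107923839, minus strand: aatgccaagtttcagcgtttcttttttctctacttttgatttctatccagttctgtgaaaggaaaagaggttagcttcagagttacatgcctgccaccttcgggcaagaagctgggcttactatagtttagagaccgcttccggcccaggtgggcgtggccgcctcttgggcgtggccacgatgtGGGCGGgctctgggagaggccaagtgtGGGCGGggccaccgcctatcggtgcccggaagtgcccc
Acsl5, the 250 bases before its start, chr19:55253119-55253368, plus strand: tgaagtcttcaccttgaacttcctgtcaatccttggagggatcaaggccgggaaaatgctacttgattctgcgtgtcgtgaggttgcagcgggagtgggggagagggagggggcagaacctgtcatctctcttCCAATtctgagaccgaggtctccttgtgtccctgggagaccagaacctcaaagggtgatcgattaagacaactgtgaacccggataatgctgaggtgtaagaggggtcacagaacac
RefSeq windows of 250 bases before to 50 after a start were matched for 28 of the 33 genes, 29 windows in all. The GC box was found in 21 of 29 of them (72.4%), against 35.7% of the 32851 windows of all genes, and CCAAT in 12 of 29 (41.4%), against 37.4%. The element of oestrogen-related receptors, AAGGTCA, was in the window of Acadm alone (3.45%, against 4.72%). The windows of all genes were not limited to genes above the filter, as the 33 are, so the shares come from unlike sets. The GC box share therefore cannot be read as particular to these genes. A match describes letters and not a bound site.

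Across all 12 arrays no gene of the set passed the threshold in any comparison. With limma on all probe sets and an adjusted p under 0.05, 0 of 33 passed in dB/dB against wild type (0% of all probe sets did) and 0 of 33 in catalase-Tg against wild type (0.0220%). The count was also 0 of 33 when dB/dB catalase-Tg was set against dB/dB (0.00551%) and against catalase-Tg (0.0276%). The same held for the interaction of genotype and transgene (0.00551%), the average effect of dB/dB over both transgene states (0.0165%) and the average effect of the transgene over both genotypes (0.0276%). At an unadjusted p under 0.05 the counts in this order were 0, 4, 0, 1, 1, 3 and 3 of 33, beside 4.16%, 9.15%, 7.50%, 6.86%, 1.64%, 12.2% and 18.1% of all probe sets. The SE of a difference between 2 groups was 0.19 to 1.25 over the 33 genes, with a median of 0.33. Differences several times the SE also failed to pass, such as -1.18 for Acsl4 in catalase-Tg against wild type (SE 0.33, limma adjusted p = 0.441). The smallest difference that these arrays could detect was not tested.

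Much of the variation of these genes lay between arrays of the same group. Of the 33 genes, 11 were lowest on catalase-Tg 1, 9 on dB/dB catalase-Tg 1 and 6 on wild type 1, so that 26 had their lowest level on the 3 arrays of low weight. The highest level lay on dB/dB catalase-Tg 3 for 14 genes and on wild type 1 for 7. The 3 arrays have low weights because they lie far from their groups, and such counts were not made over all probe sets. These counts therefore cannot be read as particular to the 33 genes. The mean level of the 33 genes, relative to their mean over the 12 arrays, was -0.43, 0.21 and 0.36 on dB/dB catalase-Tg 1, 2 and 3, against 0.08, -0.26 and -0.05 in dB/dB. It was -0.59, 0.25 and 0.21 on catalase-Tg 1, 2 and 3, against -0.07, 0.18 and 0.10 in wild type. The within-group SD had a median of 0.42 over the 33 genes and 0.38 over all probe sets tested.

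**Figure D1:**
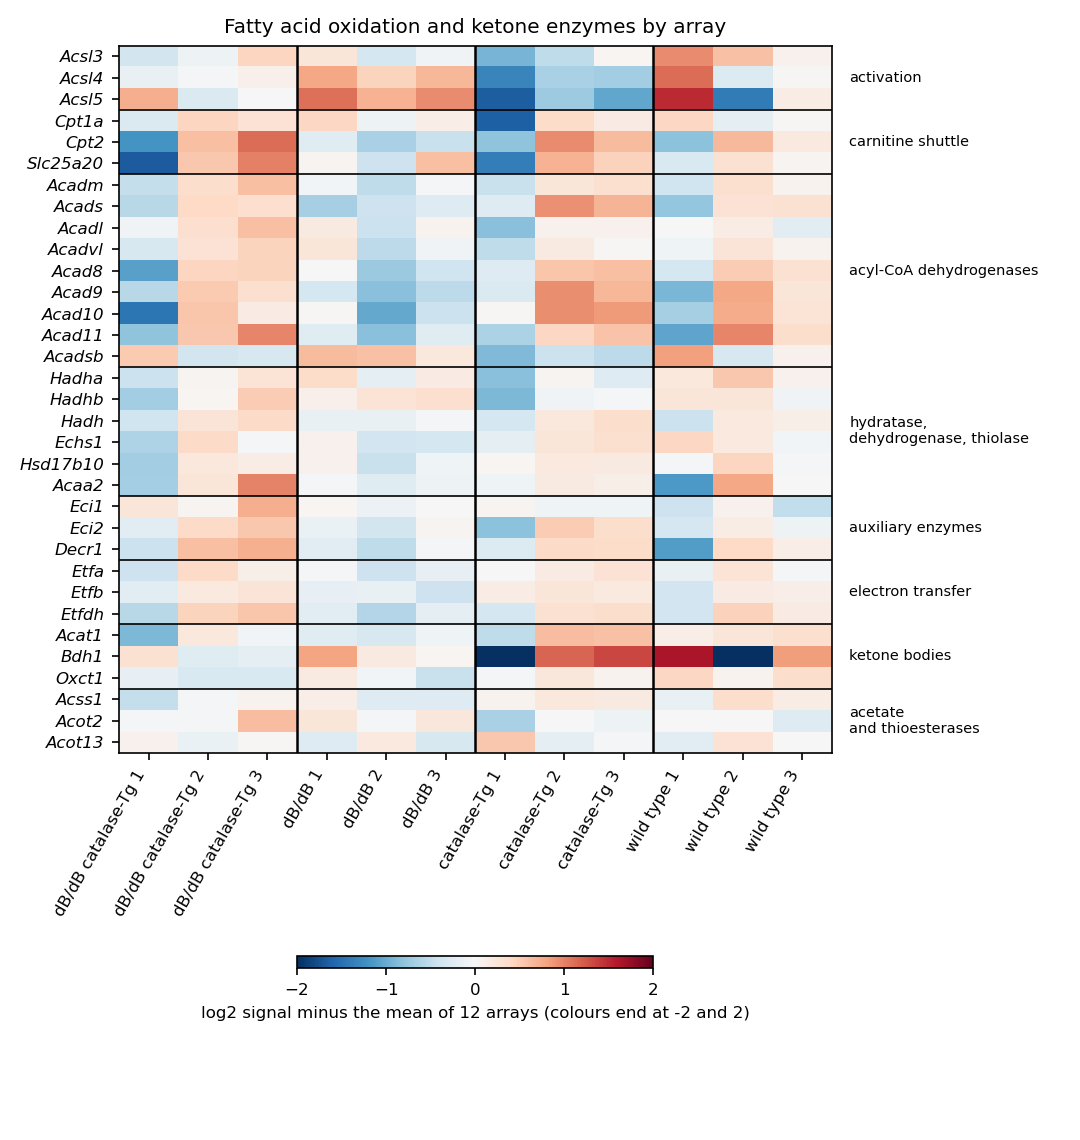
Log2 signal of each of the 33 genes (rows, ordered by role) on each array (columns, by group), as the difference from the gene's mean over the 12 arrays; red is higher and blue lower, and colours end at -2 and 2. The columns of dB/dB catalase-Tg 1 and catalase-Tg 1 are blue for most roles, and Bdh1 runs past the colour scale on catalase-Tg 1 and wild type 2.

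**Figure D2:**
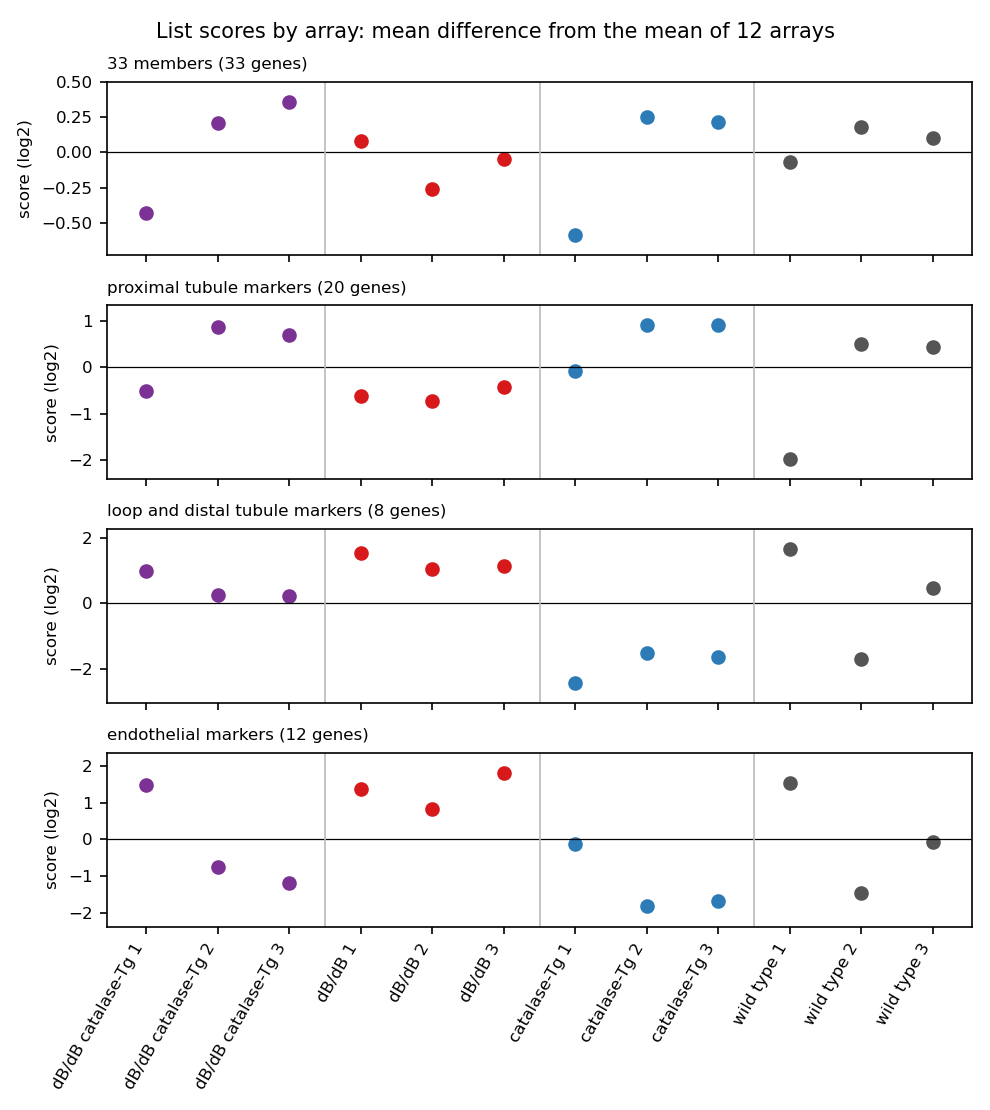
Mean log2 level of the 33 genes and of proximal tubule, loop and distal tubule, and endothelial marker lists (panels) on each array, relative to the mean over the 12 arrays, with 1 point per array and the groups side by side. The loop and distal tubule markers were between -2.44 and -1.52 in catalase-Tg and between 1.05 and 1.53 in dB/dB.

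The long-chain acyl-CoA synthetases, which join fatty acids to coenzyme A, were among the 4 genes of smallest p in each of the 7 comparisons, with no call. Acsl4, which prefers arachidonic acid, read 9.19, 9.30 and 9.44 in dB/dB catalase-Tg, 10.11, 9.78 and 10.01 in dB/dB, 8.02, 8.69 and 8.65 in catalase-Tg, and 10.46, 9.07 and 9.37 in wild type. All 3 catalase-Tg arrays lay below every array of the other groups, and the dB/dB catalase-Tg arrays lay below the dB/dB arrays, while dB/dB and wild type overlapped. The difference was -1.18 for catalase-Tg against wild type (SE 0.33, adjusted p = 0.441), -0.66 for the transgene within dB/dB (SE 0.33, adjusted p = 0.636) and 0.86 for dB/dB catalase-Tg against catalase-Tg (SE 0.33, adjusted p = 0.700). Averaged over both genotypes, the transgene difference was -0.92 (SE 0.23, adjusted p = 0.181), the lowest adjusted p of the 33 genes in any comparison. Its other probe sets gave -0.75 (SE 0.26) and -0.41 (SE 0.16) for that average. In the same order they gave -1.11 and -0.29 for catalase-Tg against wild type, and 0.84 and 0.10 for dB/dB catalase-Tg against catalase-Tg.

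Acsl5, a synthetase of mitochondria and endoplasmic reticulum, read 9.75, 8.73 and 9.01 in dB/dB catalase-Tg, 10.12, 9.71 and 9.96 in dB/dB, 7.37, 8.30 and 7.98 in catalase-Tg, and 10.51, 7.62 and 9.17 in wild type. The wild-type arrays alone spanned almost the whole range, with wild type 1 the highest of all 12. Against catalase-Tg, dB/dB catalase-Tg arrays were higher without overlap, by 1.28 (SE 0.60, adjusted p = 0.726). The dB/dB difference from wild type was 0.83 (SE 0.60, adjusted p = 0.767). Acsl3, the synthetase of lipid droplets and endoplasmic reticulum, read 6.64, 6.91 and 7.45 in dB/dB catalase-Tg, 7.25, 6.67 and 6.95 in dB/dB, 6.08, 6.51 and 7.05 in catalase-Tg, and 7.96, 7.61 and 7.10 in wild type. Every catalase-Tg array lay below every wild-type array for Acsl3, with a difference of -1.01 (SE 0.32, adjusted p = 0.507). The dB/dB difference of Acsl3 from wild type was -0.60 (SE 0.32, adjusted p = 0.767), opposite in sign to that of Acsl5. The interaction of genotype and transgene was 1.05 for Acsl3 (SE 0.46, adjusted p = 1.00). On the same arrays the mean level of the 3 synthetases was -1.30, -0.63 and -0.57 in catalase-Tg and 1.19, -0.36 and 0.09 in wild type, beside loop and distal tubule marker levels of -2.44, -1.52 and -1.63 in catalase-Tg and 1.66, -1.70 and 0.46 in wild type. The part of that other cell type in the synthetase levels was not tested.

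No gene of the carnitine shuttle passed the test or had groups without overlap. Cpt1a, the outer-membrane carnitine palmitoyltransferase at the gate of oxidation, read 10.19, 10.91 and 10.78 in dB/dB catalase-Tg, 10.89, 10.38 and 10.61 in dB/dB, 8.85, 10.84 and 10.64 in catalase-Tg, and 10.89, 10.30 and 10.50 in wild type. Of these 12 values 11 lay within 10.19 and 10.91, and catalase-Tg 1 alone lay below. The dB/dB catalase-Tg difference from dB/dB was 0.00 within rounding, with a 95% interval of -1.02 to 1.02, and the dB/dB difference from wild type was 0.06 with an interval of -0.96 to 1.08. Cpt2, the inner-membrane enzyme that hands the fatty acid back to coenzyme A, read 7.79, 9.59 and 10.10 in dB/dB catalase-Tg, 8.74, 8.34 and 8.54 in dB/dB, 8.19, 9.93 and 9.63 in catalase-Tg, and 8.17, 9.64 and 9.19 in wild type. Its dB/dB arrays were close together, with an SD of 0.20, whereas the first array of each other group lay well below its other 2. Slc25a20, the carnitine-acylcarnitine carrier, ran from 6.46 on dB/dB catalase-Tg 1 to 9.13 on dB/dB catalase-Tg 3, so a single group held both ends of its range.

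Acyl-CoA dehydrogenases catalyse the first step of each round. The 9 genes here belong to that family, but not all of them serve the oxidation of fatty acids, Acadsb being an enzyme of isoleucine breakdown. Acadm, the medium-chain enzyme, read 11.54, 12.37 and 12.62 in dB/dB catalase-Tg, 11.97, 11.51 and 11.999 in dB/dB, 11.58, 12.27 and 12.34 in catalase-Tg, and 11.63, 12.34 and 12.09 in wild type. The groups overlapped, and the dB/dB catalase-Tg difference from dB/dB was 0.35 with a 95% interval of -0.37 to 1.08. Acadl, the long-chain enzyme, read 10.83, 11.23 and 11.50 in dB/dB catalase-Tg, 11.08, 10.47 and 10.97 in dB/dB, 10.06, 10.98 and 10.99 in catalase-Tg, and 10.91, 11.05 and 10.69 in wild type. It too overlapped in all comparisons, with an interaction of 0.55 (adjusted p = 1.00). The dB/dB mean lay above the wild-type mean for 1 of the 9 (38.0% of all probe sets), with a median difference of -0.39 (all probe sets -0.11), and none passed the test.

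Acadsb, the short/branched-chain enzyme of isoleucine breakdown, was the exception among the 9. It read 9.61, 8.73 and 8.78 in dB/dB catalase-Tg, 9.72, 9.68 and 9.31 in dB/dB, 8.22, 8.66 and 8.57 in catalase-Tg, and 9.92, 8.78 and 9.18 in wild type. The catalase-Tg arrays were below all wild-type and all dB/dB catalase-Tg arrays. The difference was -0.81 for catalase-Tg against wild type (SE 0.32, adjusted p = 0.532), -0.53 for the transgene within dB/dB (SE 0.32, adjusted p = 0.636) and -0.67 for the transgene on average (SE 0.23, adjusted p = 0.201). Like Acsl5, Acadsb was highest on wild type 1 and lowest on catalase-Tg 1, the arrays where the loop and distal tubule markers were highest and lowest, and the part of that cell type in its level was not tested.

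Hadha and Hadhb, the alpha and beta subunits of the trifunctional protein, whose start region is printed above, carry out the last 3 steps for long chains. Hadha read 8.83, 9.32 and 9.54 in dB/dB catalase-Tg, 9.62, 9.06 and 9.42 in dB/dB, 8.43, 9.31 and 9.0 in catalase-Tg, and 9.47, 9.81 and 9.35 in wild type. Hadhb read 10.91, 11.64 and 12.11 in dB/dB catalase-Tg, 11.71, 11.88 and 11.94 in dB/dB, 10.71, 11.53 and 11.57 in catalase-Tg, and 11.85, 11.85 and 11.53 in wild type. Both were lowest on catalase-Tg 1, and the catalase-Tg arrays of Hadha all lay below wild type while those of Hadhb overlapped with it. The catalase-Tg difference from wild type was -0.63 for Hadha (SE 0.28, adjusted p = 0.540) and -0.48 for Hadhb (SE 0.32, adjusted p = 0.657). A second bright Hadhb probe set gave -0.59 (SE 0.19) for that comparison, and a dim one, near the filter, gave -0.06 (SE 0.33). For the interaction the dim one had the other sign, at -0.52 (SE 0.46). The probe set used gave 0.19 (SE 0.45) there, and the second bright one 0.48 (SE 0.27).

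The other enzymes of these steps are a hydratase, 2 hydroxyacyl-CoA dehydrogenases and a thiolase. Echs1, the short-chain enoyl-CoA hydratase, read 9.64, 10.64 and 10.22 in dB/dB catalase-Tg, 10.33, 9.86 and 9.90 in dB/dB, 10.05, 10.50 and 10.58 in catalase-Tg, and 10.67, 10.45 and 10.20 in wild type. Its dB/dB difference from wild type was -0.41 (SE 0.27, adjusted p = 0.767), and the groups overlapped. Hadh, the hydroxyacyl-CoA dehydrogenase of shorter chains, stayed between 13.73 and 14.55, and Hsd17b10, which also acts on isoleucine products, between 9.18 and 10.32. Acaa2, the thiolase, ran from 9.83 on wild type 1 to 11.97 on dB/dB catalase-Tg 3.

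The auxiliary enzymes handle the double bonds of unsaturated fatty acids, and all 3 had a higher mean in dB/dB catalase-Tg than in dB/dB, with no call. Eci1, an enoyl-CoA isomerase, read 10.03, 9.84 and 10.52 in dB/dB catalase-Tg, 9.83, 9.67 and 9.78 in dB/dB, 9.84, 9.71 and 9.70 in catalase-Tg, and 9.38, 9.87 and 9.29 in wild type. All dB/dB catalase-Tg arrays were above all dB/dB arrays, though the nearest values were 9.84 and 9.83, and the difference was 0.37 (SE 0.21, adjusted p = 0.636). Decr1, the dienoyl-CoA reductase, ran from 9.39 on wild type 1 to 11.21 on dB/dB catalase-Tg 3, and Eci2, the other isomerase, from 8.57 on catalase-Tg 1 to 9.94 on dB/dB catalase-Tg 3.

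Electron transfer was read from both subunits of the flavoprotein and from its oxidoreductase. Etfb, the beta subunit, read 10.82, 11.25 and 11.30 in dB/dB catalase-Tg, 10.88, 10.89 and 10.63 in dB/dB, 11.20, 11.29 and 11.24 in catalase-Tg, and 10.67, 11.21 and 11.18 in wild type. On 2 of 3 dB/dB catalase-Tg arrays it was above all dB/dB arrays, and the difference was 0.32 (SE 0.20, adjusted p = 0.638). Etfa, the alpha subunit, lay between 11.58 and 12.39, and Etfdh, which passes the electrons to ubiquinone, between 9.31 and 10.44.

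Among the ketone body enzymes, Oxct1, which transfers coenzyme A to acetoacetate and commits it to oxidation, had the smallest within-group SD of the 33 genes, at 0.20. It read 13.11, 12.98 and 12.97 in dB/dB catalase-Tg, 13.46, 13.22 and 12.83 in dB/dB, 13.25, 13.50 and 13.34 in catalase-Tg, and 13.69, 13.35 and 13.62 in wild type. The dB/dB catalase-Tg arrays all lay below the catalase-Tg arrays, by a difference of -0.34 (SE 0.19, adjusted p = 0.759), while dB/dB and wild type overlapped at -0.39 (SE 0.19, adjusted p = 0.767). Averaged over both transgene states the dB/dB difference was -0.36 (SE 0.13, adjusted p = 0.389). Its 3 other probe sets gave -0.43 (SE 0.16), -0.15 (SE 0.13) and -0.09 (SE 0.12) for that average, all below 0 but of unequal size.

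Acat1, the thiolase that forms and splits acetoacetyl-CoA, read 11.11, 12.23 and 11.95 in dB/dB catalase-Tg, 11.77, 11.69 and 11.93 in dB/dB, 11.50, 12.64 and 12.60 in catalase-Tg, and 12.15, 12.26 and 12.34 in wild type. It was the only gene of the 33 whose dB/dB and wild-type arrays did not overlap, with a difference of -0.45 (SE 0.34, adjusted p = 0.767), where 11.4% of all probe sets did not overlap. Bdh1, which interconverts hydroxybutyrate and acetoacetate, read 8.83, 8.28 and 8.33 in dB/dB catalase-Tg, 9.31, 8.71 and 8.56 in dB/dB, 5.15, 9.69 and 9.86 in catalase-Tg, and 10.16, 6.10 and 9.36 in wild type. Catalase-Tg 1 and wild type 2 were several log2 units below the rest of their groups, and the 95% interval of the dB/dB difference from wild type was -2.45 to 3.09, so nothing can be read from its group means. The second Bdh1 probe set lay below the filter.

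The remaining 3 genes handle acetate and cleave acyl-CoAs. Acot2, a mitochondrial long-chain thioesterase, read 8.68, 8.66 and 9.33 in dB/dB catalase-Tg, 8.94, 8.68 and 8.94 in dB/dB, 8.06, 8.69 and 8.60 in catalase-Tg, and 8.72, 8.70 and 8.44 in wild type. The groups overlapped, and the dB/dB catalase-Tg difference from catalase-Tg was 0.44 (SE 0.24, adjusted p = 0.755). Acss1, the mitochondrial acetyl-CoA synthetase, ran from 10.26 to 11.09 and Acot13, another thioesterase, from 10.87 to 11.72.

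**Figure D3:**
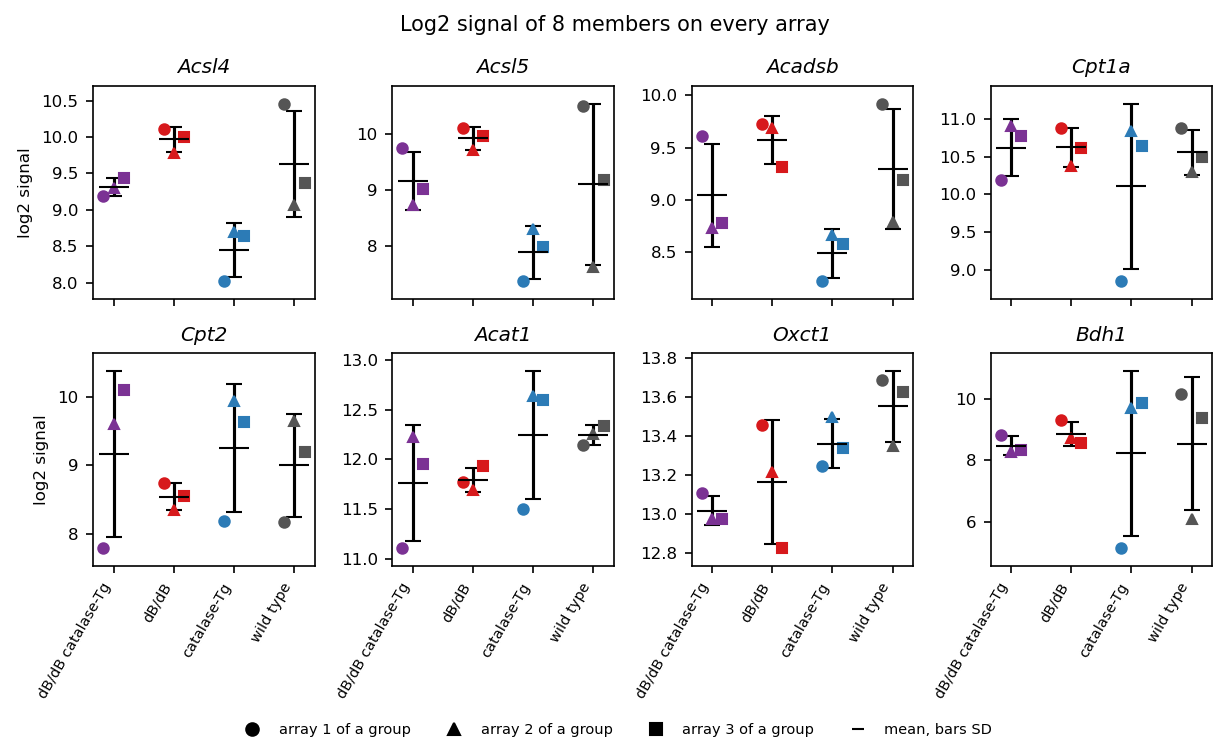
Log2 signal of 8 of the genes on every array by group; the shape of a point is the array's number in its group, and the horizontal line and bars are the mean and SD of 3 arrays. Acsl4 is low on all 3 catalase-Tg arrays, Cpt1a and Cpt2 are spread mainly by the first arrays, and Bdh1 spans 5.15 to 10.16.

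Set side by side, the comparisons gave a small median difference each. With dB/dB catalase-Tg set against dB/dB, 22 of 33 genes had a difference above 0, with a median of 0.20, beside 48.3% above 0 and a median of -0.02 over all probe sets. For dB/dB against wild type 9 of 33 were above 0, with a median of -0.19, beside 38.0% above 0 and a median of -0.11 over all probe sets. These comparisons share the dB/dB arrays, so a low or high dB/dB value moves them in opposite directions. For catalase-Tg against wild type the median was 0.03 (all probe sets -0.02), and for dB/dB catalase-Tg against catalase-Tg it was 0.12 (all probe sets -0.10). Single arrays moved these medians. With 1 array left out at a time, the median for catalase-Tg against wild type ran from -0.12 without catalase-Tg 2 to 0.19 without catalase-Tg 1, and that for dB/dB catalase-Tg against catalase-Tg from -0.19 without catalase-Tg 1 to 0.43 without dB/dB catalase-Tg 1. The median of the transgene within dB/dB ran from 0.05 without dB/dB catalase-Tg 3 to 0.44 without dB/dB catalase-Tg 1, and that of dB/dB against wild type from -0.32 without wild type 1 to -0.05 without dB/dB 2. Groups without overlap were found for 1 gene in dB/dB against wild type, 4 in catalase-Tg against wild type (13.5% of all probe sets), 2 for dB/dB catalase-Tg set against dB/dB (16.0%) and 5 for dB/dB catalase-Tg set against catalase-Tg (16.0%).

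Without the first array of the dB/dB catalase-Tg, catalase-Tg and wild-type groups, which were chosen for their distance from their own groups, the calls changed. The dB/dB catalase-Tg arrays 2 and 3 differed from the 3 dB/dB arrays in 13 of 33 genes (39.4%), beside 27.8% of all probe sets. The 11 genes that rose were Cpt2, Acad11, Acad9, Decr1, Etfdh, Acads, Acad8, Acadm, Eci2, Etfb and Hadh (16.1% of all probe sets rose), and the 2 that fell were Acadsb and Acsl4 (11.7% fell). Cpt2 was higher by 1.30 (SE 0.23, adjusted p = 0.00694), Decr1 by 0.91 (SE 0.17, adjusted p = 0.00890), Acads by 0.82 (SE 0.16, adjusted p = 0.00958) and Acadm by 0.67 (SE 0.19, adjusted p = 0.0363). Acadsb was lower, with a difference of -0.82 (SE 0.18, adjusted p = 0.0161), as was Acsl4 at -0.60 (SE 0.16, adjusted p = 0.0287). By role, 5 of 9 dehydrogenases, 2 of 3 auxiliary enzymes and 2 of 3 electron transfer genes rose, beside 16.1% of all probe sets. So did 1 of 3 carnitine shuttle genes and 1 of 6 hydratase, dehydrogenase and thiolase genes. No synthetase rose, and none of the ketone body genes or of the acetate and thioesterase genes passed. With 3 to 9 genes a role, these counts do not separate the roles.

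In the same 9 arrays, dB/dB differed from wild type 2 and 3 in 11 of 33 genes (33.3%), beside 26.9% of all probe sets. Acsl5 rose by 1.54 (SE 0.40, adjusted p = 0.0284), Acsl4 by 0.75 (SE 0.16, adjusted p = 0.0141) and Acadsb by 0.59 (SE 0.18, adjusted p = 0.0486), where 9.58% of all probe sets rose. The 8 that fell were Acad11, Acad9, Acad10, Cpt2, Acad8, Acads, Etfdh and Acat1 (17.3% of all probe sets fell), of which Cpt2 had a difference of -0.87 (SE 0.23, adjusted p = 0.0278) and Acat1 one of -0.50 (SE 0.14, adjusted p = 0.0385). The wild-type arrays left here are the 2 that carry Xist, and only wild type 2 lacks the signal of Eif2s3y, so the genotype cannot be told apart from the Xist signal. Neither catalase-Tg against wild type (0.171% of all probe sets), dB/dB catalase-Tg against catalase-Tg (0.127%) nor the interaction (0.788%) held a call of the set, and at an unadjusted p under 0.05 those comparisons held 9.79%, 11.4% and 19.2% of all probe sets. Proximal tubule marker levels on these 9 arrays were 0.69 and 0.88 in dB/dB catalase-Tg, -0.73 to -0.43 in dB/dB and 0.44 and 0.51 in wild type. Levels of 6 podocyte markers were -1.11 and -1.97 in dB/dB catalase-Tg, 0.67 to 2.96 in dB/dB, and -2.30 and 2.07 in wild type. Those of 6 mural and fibroblast markers were -1.73 and -1.40 in dB/dB catalase-Tg, 1.02 to 2.02 in dB/dB, and -1.90 and 0.09 in wild type. Those of 4 collecting duct markers were -0.05 and -0.17 in dB/dB catalase-Tg, 0.30 to 1.19 in dB/dB, and -0.83 and -0.51 in wild type. The part of these cell types in the result was not tested.

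With all 12 arrays kept but weighted by their distance from their groups, 14 of 33 genes passed for dB/dB catalase-Tg set against dB/dB (38.5% of all probe sets), 1 between dB/dB catalase-Tg and catalase-Tg (4.87%), and 0 between dB/dB and wild type (0%), between catalase-Tg and wild type (0.0331%) and in the interaction (0.00551%). The average effects of dB/dB and of the transgene held 5 (19.4%) and 7 (20.5%) of 33 genes without the 3 arrays, and 2 (10.9%) and 9 (26.4%) with array weights. Leaving out wild type 1 alone gave 2 of 33 for the average of dB/dB (6.87% of all probe sets), and leaving out wild type 2 alone gave 2 of 33 for the average of the transgene (5.34%), both close to the share of all probe sets. Without wild type 2 and 3, which leaves 1 wild-type array, Acsl4, Acsl5 and Acadsb were lower in catalase-Tg than in wild type (3 of 33, beside 12% of all probe sets) and for the transgene on average (3 of 33, beside 18.6%). The catalase-Tg difference was then -2.005 for Acsl4 (adjusted p = 0.00694), -2.63 for Acsl5 (adjusted p = 0.0103) and -1.44 for Acadsb (adjusted p = 0.0457), the lone wild-type array being assumed to vary like the other groups. That array is wild type 1, 1 of the 3 of low weight and the highest of all 12 for these 3 genes and for the loop and distal tubule markers, whose part was not tested. In this setting 0 of 33 passed elsewhere (dB/dB catalase-Tg against catalase-Tg held 0.959% of all probe sets). With the mean level of endothelial, podocyte and mural markers as a covariate on all 12 arrays, 0 of 33 passed in any comparison, as without it. The covariate was not used without the 3 arrays of low weight or with array weights, so its effect on the calls there was not tested. With the covariate, the median dB/dB catalase-Tg difference from dB/dB was -0.10, with 7 of 33 genes above 0. Over all probe sets it was -0.09, with 38.0% above 0.

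**Figure D4:**
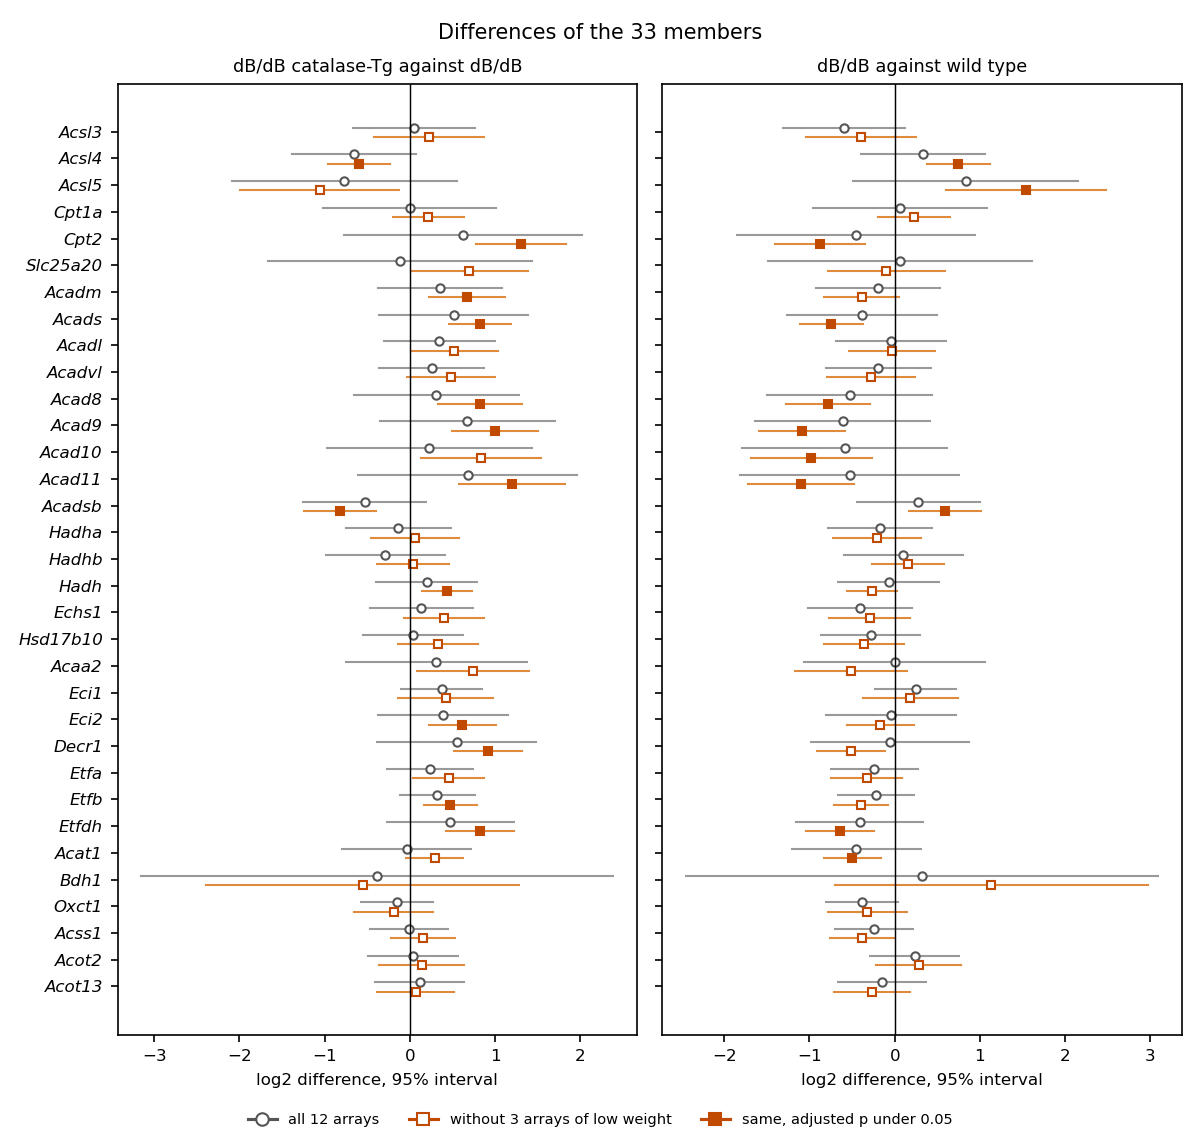
Log2 difference of each gene with its 95% interval for the transgene within dB/dB (left, dB/dB catalase-Tg minus dB/dB) and between dB/dB and wild type (right), on all 12 arrays (grey circles) and with the 3 arrays of low weight left out (orange squares); filled symbols have an adjusted p under 0.05. No grey circle is filled, while 13 and 11 orange squares are, both panels use the same dB/dB arrays, and each has its own horizontal scale.

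Outside the 33 genes, none of 17 related enzymes and none of 18 genes of fatty acid uptake and control passed in any comparison on all 12 arrays. Slc22a5, the carnitine importer of the cell surface, read 9.30, 11.12 and 11.30 in dB/dB catalase-Tg, 9.78, 9.40 and 9.92 in dB/dB, 9.81, 11.06 and 11.12 in catalase-Tg, and 8.81, 11.36 and 10.60 in wild type, low on the first array of each of the groups other than dB/dB. Rxra, the partner receptor of the peroxisome proliferator-activated receptors, read 6.13, 7.69 and 7.46 in dB/dB catalase-Tg, 6.42, 6.41 and 6.37 in dB/dB, 7.17, 8.03 and 7.64 in catalase-Tg, and 6.11, 7.44 and 7.32 in wild type, again with the dB/dB arrays close together. Without the 3 arrays of low weight, dB/dB catalase-Tg against dB/dB gave 11 of 17 related enzymes higher (16.1% of all probe sets) and 0 lower (11.7%), among them Slc22a5 at 1.50 (SE 0.25, adjusted p = 0.00599) and Crot, the carnitine octanoyltransferase of peroxisomes, at 1.22 (SE 0.20, adjusted p = 0.00603). In those 9 arrays 1 of the 17 was higher and 9 were lower in dB/dB than in wild type (9.58% and 17.3% of all probe sets). As for the 33 genes, p-values in this setting tend to be too small.

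Of the genes of uptake and control, 6 of 18 were then higher (16.1% of all probe sets) and 3 lower (11.7%) in dB/dB catalase-Tg than in dB/dB, and 3 were higher (9.58%) and 5 lower (17.3%) in dB/dB than in wild type. With the marker covariate on all 12 arrays, 0 of 17 and 0 of 18 passed in each comparison. The values that follow compare dB/dB catalase-Tg with dB/dB, leaving out the 3 arrays of low weight and the covariate. Their p-values tend to be too small, as said above for this setting. Rxra was higher by 1.17 (SE 0.16, adjusted p = 0.00314) and Plin2, a lipid droplet protein, by 1.40 (SE 0.27, adjusted p = 0.00897). Ppargc1a, a coactivator of mitochondrial genes, had a difference of -0.81 (SE 0.19, adjusted p = 0.0193). Ppara, the receptor that drives many genes of the set, did not pass, at 0.68 (SE 0.28, adjusted p = 0.110). Fabp4, a fatty acid binding protein of fat and of capillary endothelium, was lower by a difference of -2.14 (SE 0.29, adjusted p = 0.00341), on arrays where endothelial marker levels were -0.74 and -1.19 in dB/dB catalase-Tg and 0.84 to 1.82 in dB/dB.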

How the data were processed

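The authors deposited 1 log2 signal for each probe set, made with GCRMA, per the submitters' processing notes, which also name limma and give no versions. No further normalization was applied, and the lowest value of the table is 2.302. Of 45101 probe sets, 64 controls were left out, and the 18144 above 4 on at least 3 of 12 arrays were tested, 9744 genes among them. One group mean each was fitted to all 12 arrays with limma 3.58.1 in R 4.3.3, with Benjamini-Hochberg adjustment over these probe sets, and 0.05 was the threshold. The number of arrays limits the precision.

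The genes of the set and the lists were chosen with earlier results of these data known, as were the 3 arrays of low weight. Values on every array are given for up to 4 genes of smallest p in each of 7 comparisons, for Cpt1a, Cpt2, Acadm and Hadha, and for genes whose probe sets differ in sign by over 0.5. Acat1, Bdh1, the pathway genes with values and the genes called without the 3 arrays were named after their values were seen. The fit was tested on simulated data with independent noise, alike on every array. That test does not cover arrays that stand apart from their groups. Alternatives were filters, spread estimate, array weights, normalization, probe sets, samples, the replicate number as a block and a marker covariate.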

Additional observations from a re-analysis of the deposited data

How the results depend on the processing

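With all 12 arrays, 0 of the 33 genes passed in each of 7 comparisons, and this count stayed at 0 under the other filters, spread estimate, normalizations, probe set choice and marker covariate, and, for the 4 comparisons of 2 groups, in fits of those groups alone. It changed with the arrays used. Shares of all probe sets called are in brackets. Without the 3 arrays of low weight it was 13 for dB/dB catalase-Tg set against dB/dB (27.8%) and 11 for dB/dB against wild type (26.9%). It was then 5 for the average dB/dB effect (19.4%) and 7 for the average transgene effect (20.5%). With array weights it was 14 for dB/dB catalase-Tg set against dB/dB (38.5%) and 1 for dB/dB catalase-Tg against catalase-Tg (4.87%). With those weights it was 2 for the average dB/dB effect (10.9%) and 9 for the average transgene effect (26.4%). Without wild type 2 and 3, the arrays that carry Xist, the dB/dB difference of Acsl5 from wild type turned to -0.58. Leaving out each array in turn gave 0 to 2 for both average effects and 0 to 0 for the rest. The 2 genes were reached without wild type 1 for dB/dB (6.87%) and without wild type 2 for the transgene (5.34%). The interaction of Acsl4 turned to -0.0453 without the 3 arrays and to -0.24 with its dim probe set. With the covariate, the median catalase-Tg difference from wild type became -0.32. Over all probe sets that median went from -0.02 to -0.10. The cause of these changes was not tested. Of 15 genes with further probe sets, 80 of 96 comparisons kept the sign.

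With the replicate number as a block, 0 genes passed in each comparison. Correlations of deviations over 18 pairs with the same number ran from -0.18 to 0.71, so the numbers were not taken as pairs: 5 were at or below 0.1, all with a dB/dB array, and the 9 among the other 3 groups ran from 0.20 to 0.71.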
